A study of Mus musculus with 27 samples.

Results

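Hippocampus maturation from P10 to P20 was described from 6 of the 27 RNA pools of a quantitative PCR study of the mouse brain: the 3 hippocampus pools of postnatal day 20 and the 3 of postnatal day 10, taken by region and age. The study asked how gut colonization after birth relates to gene expression in the hippocampus, cortex and cerebellum at P4, P10 and P20. All mice were outbred Swiss Webster, bred germ-free and kept with their dams in isolators. One group stayed germ-free (GF) and received sterile phosphate buffered saline, another was conventionalized (CONV) from the first days with the microbiota of specific-pathogen-free donors through the dam and used bedding, and the remaining group (BIF) was gavaged with *Bifidobacterium dentium*, *B. longum* subsp. *infantis*, *B. breve* and *B. bifidum*. Each treatment had an isolator of its own, and each pool held hippocampal RNA of 5 male mice of 1 treatment and 1 age, so the spread between mice cannot be seen. Each P20 pool was set against the P10 pool of the same treatment, which gives 3 pairs, and age is the comparison described here. Values of 3 pools stand in the order GF, CONV, BIF throughout.

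In the mouse hippocampus the days between P10 and P20 are a time of dense synapse formation, of opening eyes and first exploration, and of the beginning of myelination. Glutamate receptors of the NMDA type change their subunits over this period, AMPA receptors gather at synapses, and adhesion and matrix molecules that guided growing axons give way to those of settled circuits. Genes that neurons switch on within minutes of activity, such as *Arc* and *Egr1*, serve as a readout of how strongly the tissue is driven.

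Expression was read on a PCR array of 84 genes of synaptic plasticity, with 5 reference genes and 7 control wells. Every pool gave 1 threshold cycle (CT) for a gene, which is the PCR cycle at which its well crosses a set fluorescence. The level of a gene is the mean CT of 4 reference genes (*B2m*, *Gapdh*, *Gusb* and *Hsp90ab1*) minus the CT of the gene. It is a log2 scale on which a higher value means more RNA, and it serves to compare a gene between pools, not genes with each other. Of the 504 CTs of pathway genes in the 6 pools, the lowest was 18.8, 32 were above 30 and 4 were at the detection limit of 35. Those 4 belong to *Tnf*, which was therefore not tested, and 83 genes were. A CT varied by 0.0992 (SD) between the 3 wells of a control, which alone gives a pair change an SD of 0.157. The SD of the 3 pair changes had a median of 0.154 over the tested genes. The files give wells without names. Listed values of the study point to 1 well for 49 pathway genes and to several for 13, among them *Cebpb*, *Cnr1*, *Grin2b*, *Grm2*, *Grm5*, *Ncam1*, *Ntrk2*, *Ppp1cc*, *Prkg1*, *Rela*, *Sirt1* and *Synpo*. The other 22 were named by their place in the array order only. Among these 22 are *Akt1*, *Crem*, *Dlg4*, *Ephb2*, *Gria1*, *Gria3*, *Gria4*, *Igf1*, *Jun*, *Nfkb1*, *Pick1*, *Pim1*, *Ppp1ca*, *Ppp2ca*, *Prkca*, *Reln*, *Rgs2*, *Rheb*, *Srf* and *Ywhaq*, and the wells of *Pick1* and *Pim1* cannot be told apart. The gene list of the study has *Pick1* between *Nos1* and *Nptx2* and *Ywhaq* after *Actb*. Here *Pick1* was placed after *Pcdh8* and *Ywhaq* between *Tnf* and *Actb*, so the names of both wells are less certain.

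From P10 to P20 the hippocampus gained RNA of the NMDA receptor subunit *Grin2a*, the AMPA receptor subunits *Gria2* and *Gria3* and 5 of 9 immediate early genes. RNA of *Ppp1r14a*, a phosphatase inhibitor known from mature oligodendrocytes, rose as well. RNA of *Ncam1*, *Ephb2*, *Reln*, *Igf1* and the neurotrophin receptor gene *Ngfr* fell. Gaps between plates at P4, given below, stand beside some of these changes, among them those of *Gria2* and *Ngfr*. Of the 83 genes tested with limma, 58 (69.9%) passed an adjusted p of 0.05, and these are the genes called below. Among them 30 (36.1%) were higher and 28 (33.7%) lower at P20. All 58 moved in the same direction in the 3 pairs, as did 69 of all 83 genes. In 54 of the 58 the 3 P20 pools did not overlap the 3 P10 pools, as against 59 of all 83 genes. The shares called higher (36.1%) and lower (33.7%), and these 59 of 83, are the background for the counts and separated ages in each list below. No list was tested as a set. Changes were mostly modest, with a median of -0.05 and a median size of 0.36 on the log2 scale. A rise of 1.5-fold or more in every pair was seen in 8 genes (9.64%) and a fall of that size in 8 (9.64%).

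The balance of rises and falls depended on the reference. With *Gapdh* alone 22 genes were called higher and 31 lower (41.5% higher, against 51.7% in the comparison above), and the pathway genes' own median as the reference gave 22 and 33 (40.0%). The mean of all 5 reference genes gave 31 and 16 (66.0%), and leaving out *B2m* gave 31 and 12 (72.1%) and moved the median change from -0.05 to 0.07. A group of 33 genes was called under all 5 references, 21 higher and 12 lower. Without the BIF pools 4 genes were called, *Ppp1r14a* and *Cebpd* higher and *Ncam1* and *Igf1* lower, and all 58 kept their sign. Without the GF pools 46 of the 58 remained called, and without the CONV pools also 46. Each of these fits had 1 residual degree of freedom per gene. They differed in the total, which was 2.96 without BIF but 83 without GF or CONV, where limma pooled the variance over all genes, against 6.41 with all pools. Counts of calls from these fits therefore do not compare the treatments. The mean changes of *Bdnf* (0.17), *Homer1* (0.18), *Pick1* (-0.17) and *Ppp1ca* (-0.20) without CONV, and of *Ywhaq* (-0.39) without BIF, were more than 1.5 times smaller than with all pools and not called, and *Egr1* (0.37 without CONV) shrank as much but stayed called. All P10 pools were run on plate 1 and all P20 pools on plate 4, so age and plate cannot be told apart in any of these results.

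**Figure D1:**
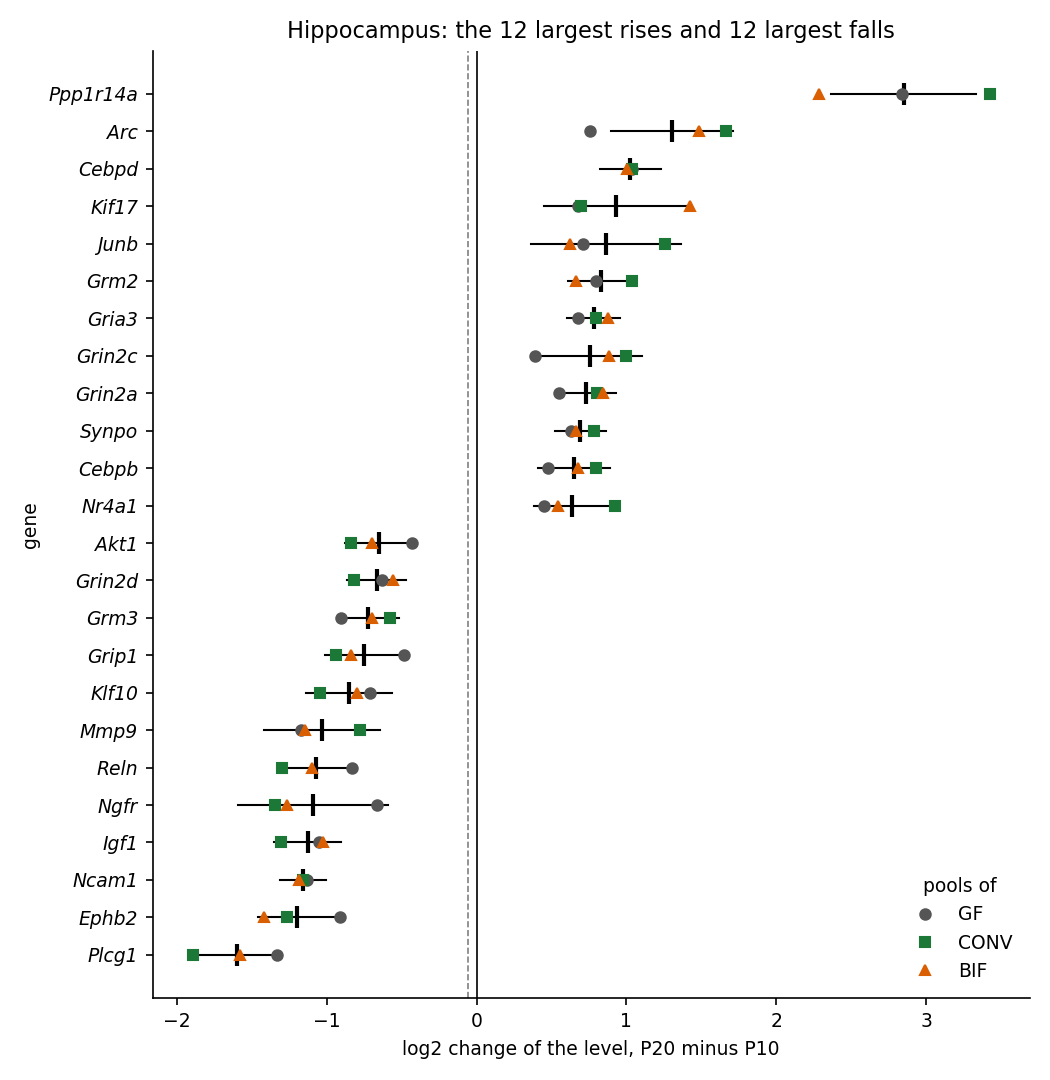
Log2 change of the level from P10 to P20 (horizontal axis) for the 12 genes with the largest called rise and the 12 with the largest called fall, with 1 point per treatment pair, a tick at the mean and a line for the 95% confidence interval of limma; the dashed line is the median of all 83 genes. All 3 points of each gene lie on the same side of 0, and *Ppp1r14a* stands alone with a mean rise of 2.85.

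Of the 5 NMDA receptor subunits on the array, 2 were called higher, 1 lower and 2 were not called, with a median change of 0.06 against -0.05 for all genes. The sign of that median turned with *Gapdh* alone (-0.03) and with the median of the pathway genes (-0.02), while the 3 calls held under all references. *Grin2a* encodes the subunit whose part in forebrain NMDA receptors is known to grow after birth. It had levels of -1.39, -1.86 and -1.81 in the P10 pools and -0.84, -1.06 and -0.96 in the P20 pools. All 3 P20 pools were above all 3 P10 pools, with the GF pool highest at both ages, and the mean rise was 0.73 (95% CI 0.53 to 0.93, adjusted p = 0.000633). *Grin2c*, a subunit known best from the cerebellum, stood at -5.58, -6.15 and -5.99 at P10 and at -5.19, -5.16 and -5.10 at P20. Again the groups did not overlap, the GF pair moved least (0.39), and the mean rise was 0.76 (adjusted p = 0.00463). *Grin2d*, a subunit typical of early development and of interneurons, went the other way, from -2.30, -2.03 and -2.38 to -2.93, -2.85 and -2.93. Every P20 pool lay below every P10 pool, and the level fell by 0.67 (95% CI -0.86 to -0.47, adjusted p = 0.000764). *Grin2b*, the subunit that prevails in the young forebrain, had levels of -0.45, -0.46 and -0.45 at P10 and -0.43, -0.65 and -0.45 at P20. Its groups overlapped and it was not called (-0.06, 95% CI -0.23 to 0.12). *Grin1*, the subunit that every NMDA receptor contains, was also not called (0.06, 95% CI -0.11 to 0.23).

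The 4 AMPA receptor subunits, which carry most of the fast excitatory current, had a median change of 0.38, with 3 called higher and 0 lower. *Gria3* had levels of -2.02, -2.28 and -2.31 at P10 and -1.35, -1.49 and -1.43 at P20. *Gria2*, whose product makes the receptor nearly impermeable to calcium, went from -0.06, 0.12 and 0.09 to 0.56, 0.52 and 0.70. In both genes the ages were fully separated, with rises of 0.78 for *Gria3* (adjusted p = 0.000293) and 0.54 for *Gria2* (adjusted p = 0.00136). *Gria1* changed less, from 1.47, 1.31 and 1.40 to 1.75, 1.38 and 1.72, and the P20 CONV pool lay within the range of the P10 pools. Its rise of 0.22 (adjusted p = 0.0379) was not called with *Gapdh* alone or with the median of the pathway genes. *Gria4* changed by 0.14 (95% CI -0.03 to 0.32) and was not called, but it was with the 5-gene reference and without *B2m*.

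**Figure D2:**
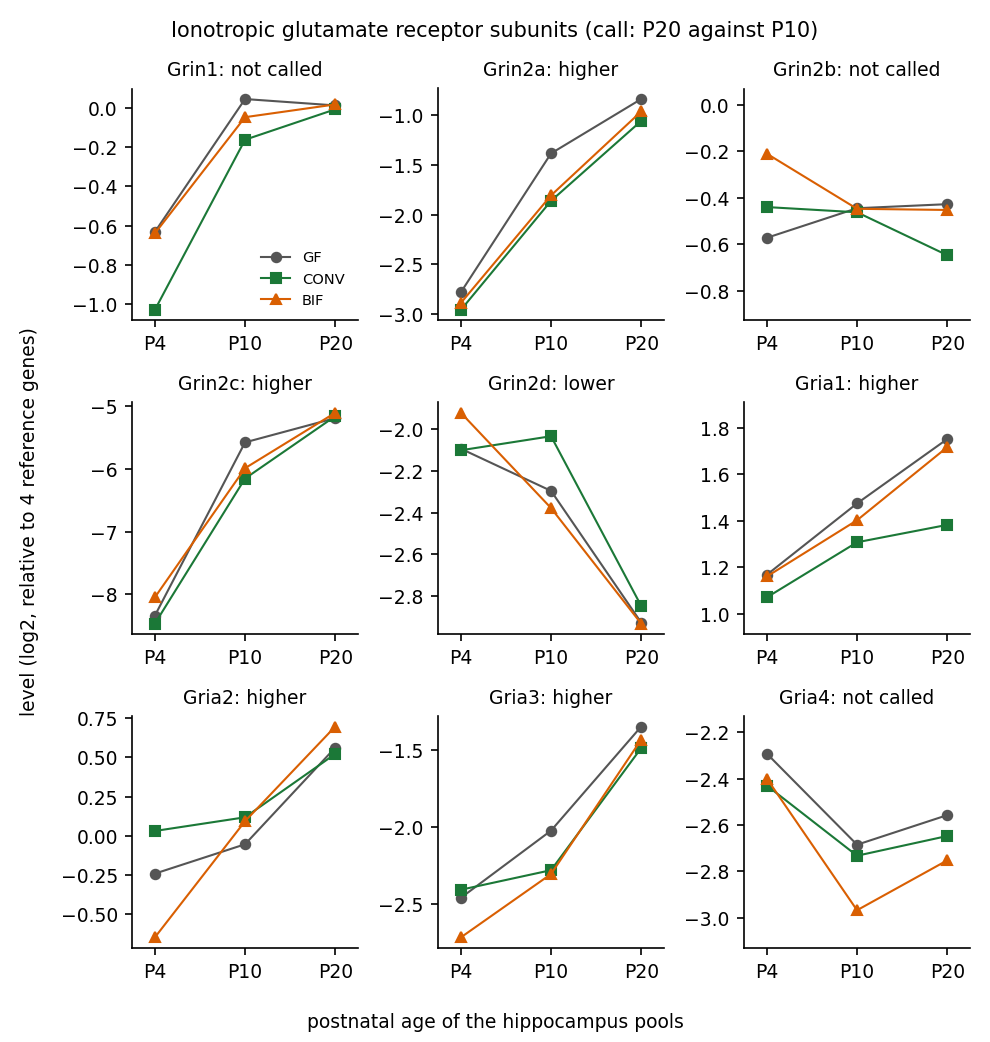
Levels (log2, vertical axis) of the NMDA and AMPA receptor subunits in the hippocampus pools of P4, P10 and P20, with 1 line per treatment and the call of the P10 to P20 comparison above each panel. *Grin2a*, *Grin2c*, *Gria2* and *Gria3* lie higher at P20 than at P10 in all 3 treatments, *Grin2d* lies lower, and *Grin2b* lies between -0.65 and -0.43 at both of these ages.

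The 7 metabotropic glutamate receptors, which act through G proteins, had 2 members called higher, 3 lower and 2 not called, with a median of -0.14. *Grm2*, a presynaptic receptor that damps glutamate release, had levels of -3.15, -3.54 and -3.34 at P10 and -2.36, -2.51 and -2.67 at P20. *Grm3*, its close relative that is also found on astrocytes, went from -1.57, -1.73 and -1.62 to -2.48, -2.31 and -2.31. These relatives thus moved in opposite directions without overlap of the ages, *Grm2* by 0.83 (adjusted p = 0.000591) and *Grm3* by -0.72 (adjusted p = 0.000712). *Grm5*, a receptor coupled to phospholipase C, fell by 0.26 (adjusted p = 0.0145), and *Grm4*, which like *Grm7* and *Grm8* is mainly presynaptic, fell by 0.43 with overlapping groups (adjusted p = 0.0145). The call of *Grm5* was lost with the 5-gene reference and without *B2m*, that of *Grm4* without *B2m*. *Grm7* (-0.14) and *Grm8* (0.24) were not called. *Gabra5*, the GABA-A receptor subunit of tonic inhibition in the hippocampus, stood at -0.05, -0.16 and -0.02 at P10 and at -0.31, -0.40 and -0.51 at P20. This fall of 0.33 separated the ages (adjusted p = 0.0122) but was not called without *B2m*. The cannabinoid receptor gene *Cnr1* was not called (0.05), and the median of the pair was -0.14.

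Among 8 scaffold, trafficking and vesicle proteins of the synapse, 4 were called higher and 3 lower, with a median of 0.09 that was -0.00 with *Gapdh* alone. *Kif17*, a dendritic motor known to carry NMDA receptor cargo, had levels of -7.56, -7.22 and -7.99 at P10 and -6.88, -6.53 and -6.56 at P20. *Synpo*, the marker protein of the spine apparatus, went from -1.60, -1.91 and -1.76 to -0.98, -1.13 and -1.09. Both genes separated the ages, with a rise of 0.93 for *Kif17* that was largest in the BIF pair (1.43; adjusted p = 0.00819) and an even rise of 0.69 for *Synpo* (adjusted p = 0.000395). *Homer1*, a linker of metabotropic receptors to the postsynaptic density, rose by 0.31 (adjusted p = 0.0379), with pair changes of 0.06, 0.58 and 0.30. The vesicle protein gene *Rab3a* rose by 0.18 (adjusted p = 0.0473). Both calls were lost with *Gapdh* alone and with the median reference. That of *Rab3a* held under 3 of 12 alternatives and was lost with any treatment left out. *Grip1*, a scaffold that binds AMPA receptors, stood at -3.62, -3.35 and -3.61 at P10 and fell to -4.10, -4.29 and -4.44. Its P20 pools all lay below its P10 pools (mean -0.75, adjusted p = 0.00143). *Pick1* (-0.28) and the secreted pentraxin gene *Nptx2* (-0.20) were called lower, but not with the 5-gene reference or without *B2m*. *Dlg4*, the core scaffold gene of the postsynaptic density, had a mean change of -0.00 (95% CI -0.16 to 0.16) and was not called.

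Of the 9 immediate early genes, which neuronal activity induces, 5 were called higher and 0 lower, with a median of 0.25. *Arc*, whose product drives AMPA receptor uptake, had levels of -2.77, -3.78 and -3.30 at P10 and -2.01, -2.12 and -1.81 at P20. The P10 pools were spread by treatment, with GF highest and CONV lowest, whereas the P20 pools lay close together and all above them. The mean rise was 1.30, or 2.47-fold (95% CI 0.89 to 1.71, adjusted p = 0.00109), with pair changes of 0.76, 1.67 and 1.49. *Junb* stood at -7.96, -8.58 and -8.07 at P10 and at -7.26, -7.33 and -7.44 at P20. *Nr4a1*, an orphan nuclear receptor, went from -3.12, -3.58 and -3.30 to -2.67, -2.66 and -2.75. *Egr1*, a zinc finger factor tied to memory formation, went from -2.19, -2.55 and -2.39 to -1.94, -1.60 and -1.90. None of the 3 genes overlapped between the ages, and in each the CONV pair changed most. The means were 0.86 for *Junb* (adjusted p = 0.0122), 0.64 for *Nr4a1* (adjusted p = 0.00274) and 0.56 for *Egr1* (adjusted p = 0.0122). *Jun* rose by 0.25 (adjusted p = 0.0285), a call lost with *Gapdh* alone and with the median reference.

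The other 4 immediate early genes did not take part in these rises. *Egr2* had a mean change of -0.50 (95% CI -0.98 to -0.03, adjusted p = 0.0576), and its 3 P20 pools (-8.26, -8.05 and -8.08) lay below its P10 pools (-7.77, -7.29 and -7.82). *Fos* changed by -0.36 (adjusted p = 0.0719), *Egr4* by -0.24 (adjusted p = 0.117) and *Egr3* by -0.02, with pools of the ages overlapping in all 3. *Egr2* and *Fos* were called lower with *Gapdh* alone, and with the median reference *Egr4* was as well. *Egr2* was also called lower without the trend and in a fit over all 27 pools, and *Egr4* without the CONV pools. Genes of this class thus held rises and values below 0 side by side, and the count of called falls ran from 0 to 3 with the reference.

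**Figure D3:**
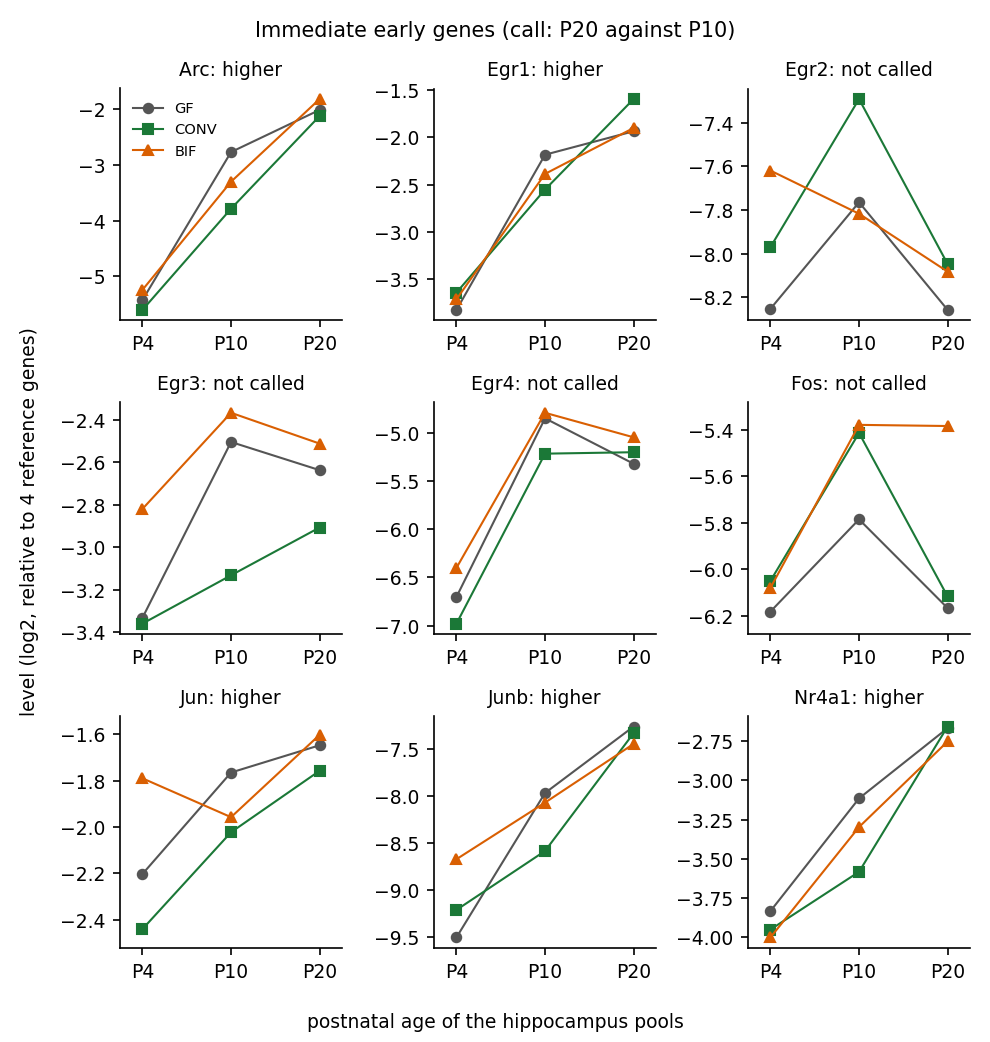
Levels (log2, vertical axis) of 9 immediate early genes in the hippocampus pools of P4, P10 and P20, with 1 line per treatment and the call of the P10 to P20 comparison above each panel. *Arc*, *Egr1*, *Jun*, *Junb* and *Nr4a1* lie higher at P20 than at P10 in all treatments, while *Egr2* lies lower in all 3 without a call.

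Promoters of genes that rose are shown because activity-regulated genes are known for CREB binding at the letters TGACG. RefSeq promoters (build GRCm38.p6, 250 bases before to 50 after the gene start) were at hand for 55 of the 84 genes. TGACG was sought on both strands (CGTCA on the other), as was TGACGTCA, which contains TGACG on each strand. TGACG was found in 23.0% of all 27025 promoters and in 45.5% of the 55 promoters of array genes. Among array genes it was found in 10 of 18 called higher, 4 of 20 called lower and 11 of 16 not called. TGACGTCA was found in 2.03% of all promoters and in 2 of the 55 (3.64%), 1 of them of a gene called higher and 1 of a gene called lower. Among the transcription factors that rose are *Junb* (chr8:84978699-84978998, minus strand), *Nr4a1* (chr15:101266596-101266895, plus strand) and *Cebpb* (chr2:167688665-167688964, plus strand). The motor gene *Kif17* (chr4:138262001-138262300, plus strand) holds TGACGTCA, and *Ppp1r14a* (chr7:29289070-29289369, plus strand) had the largest rise. The promoters printed here all hold TGACG, so they do not show its share among genes called higher, which was 10 of 18. Capitals mark the matches, which are a description of these letters and no evidence of binding.
Junb: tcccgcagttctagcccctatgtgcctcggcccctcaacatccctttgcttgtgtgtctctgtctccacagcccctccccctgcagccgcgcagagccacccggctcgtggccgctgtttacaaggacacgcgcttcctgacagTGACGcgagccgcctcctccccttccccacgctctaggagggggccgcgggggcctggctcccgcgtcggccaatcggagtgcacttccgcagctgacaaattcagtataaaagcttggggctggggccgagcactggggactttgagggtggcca
Nr4a1: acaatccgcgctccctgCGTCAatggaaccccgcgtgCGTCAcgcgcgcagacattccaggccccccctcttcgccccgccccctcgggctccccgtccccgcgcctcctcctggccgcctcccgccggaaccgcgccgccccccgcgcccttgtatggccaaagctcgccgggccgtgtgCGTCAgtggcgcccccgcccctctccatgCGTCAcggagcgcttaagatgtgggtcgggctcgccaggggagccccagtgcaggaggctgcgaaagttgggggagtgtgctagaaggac
Cebpb: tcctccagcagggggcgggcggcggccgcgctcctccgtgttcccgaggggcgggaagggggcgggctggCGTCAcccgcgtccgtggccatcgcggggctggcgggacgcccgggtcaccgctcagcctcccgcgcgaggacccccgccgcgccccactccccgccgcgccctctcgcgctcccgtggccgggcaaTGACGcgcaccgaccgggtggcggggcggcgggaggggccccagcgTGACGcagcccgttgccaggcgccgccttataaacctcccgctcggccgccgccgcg
Kif17: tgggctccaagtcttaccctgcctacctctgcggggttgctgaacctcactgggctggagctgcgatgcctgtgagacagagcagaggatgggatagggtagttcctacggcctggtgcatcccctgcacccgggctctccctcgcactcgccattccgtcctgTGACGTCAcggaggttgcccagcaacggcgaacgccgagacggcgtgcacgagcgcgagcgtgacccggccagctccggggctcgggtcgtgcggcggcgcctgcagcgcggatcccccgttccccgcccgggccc
Ppp1r14a: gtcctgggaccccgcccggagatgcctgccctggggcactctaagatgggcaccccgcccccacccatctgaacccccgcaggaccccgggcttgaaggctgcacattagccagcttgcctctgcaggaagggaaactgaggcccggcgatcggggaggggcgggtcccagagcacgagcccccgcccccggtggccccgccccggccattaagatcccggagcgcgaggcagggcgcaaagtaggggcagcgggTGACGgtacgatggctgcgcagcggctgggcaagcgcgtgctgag
*Nr4a1* has 4 matches, *Cebpb* 3 and *Junb* 1, and the match of *Ppp1r14a* lies just after the gene start.

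The 10 other transcription regulators had 3 members called higher, 3 lower and 4 not called, with a median of -0.07 that was above 0 with the 5-gene reference (0.02) and without *B2m* (0.05). *Cebpd*, a factor of inflammatory and glial responses, had levels of -5.20, -5.09 and -5.02 at P10 and -4.16, -4.06 and -4.01 at P20. Its pair changes of 1.04, 1.04 and 1.01 were nearly equal, closer than the spread between control wells alone gives (SD 0.157). The mean rise was 1.03, or 2.04-fold (95% CI 0.82 to 1.23, adjusted p = 0.000205). Its relative *Cebpb* rose by 0.65 (adjusted p = 0.0018), from -4.98, -5.18 and -4.94 to -4.51, -4.39 and -4.26. *Srf*, the serum response factor that activates many immediate early genes, rose by 0.36 (adjusted p = 0.0053). *Klf10*, a factor induced by TGF-beta signals, went from -5.33, -5.40 and -5.39 to -6.04, -6.45 and -6.18. That fall of 0.85 separated the ages (adjusted p = 0.00136). The NF-kappaB subunit genes *Rela* (-0.34) and *Nfkb1* (-0.29) were called lower, but not with the 5-gene reference or without *B2m*. *Creb1*, the gene of the factor that binds TGACG, had levels of -3.34, -3.81 and -3.43 at P10 and -3.38, -3.82 and -3.47 at P20. Pools of the same treatment were closer to each other than to other pools of their own age, and the mean change was -0.03 (95% CI -0.21 to 0.15), not called.

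Neurotrophins and their receptors had 4 members called higher, 1 lower and 1 not called, with a median of 0.30. Among the rises, which were small, were 0.37 for *Ntf3* (adjusted p = 0.0145), 0.31 for the BDNF receptor gene *Ntrk2* (adjusted p = 0.0145) and 0.30 for *Bdnf* (adjusted p = 0.0379). *Bdnf*, which promotes synapse growth and plasticity, had levels of -2.49, -2.94 and -2.61 at P10 and -2.40, -2.39 and -2.35 at P20. The GF pair accounted for little of it, with a change of 0.09, and the CONV pair for most, with 0.56. With *Gapdh* alone or with the median reference 1 member of the list was called higher. *Ngfr*, the pan-neurotrophin receptor that is prominent in immature neurons, went from -7.37, -6.68 and -7.18 to -8.03, -8.03 and -8.44. This was a fall of 1.09, or 2.13-fold, with no overlap of the ages (95% CI -1.59 to -0.59, adjusted p = 0.00463). *Ntf5* was measured at CTs above 30, with pair changes of -0.29, 0.82 and 0.09, and was not called.

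Adhesion molecules and the Eph receptor on the array had 3 of 4 members called lower and 0 higher, with a median of -0.70. *Ncam1*, the neural cell adhesion molecule of axon growth, had levels of 0.26, 0.38 and 0.27 at P10 and -0.88, -0.78 and -0.91 at P20. The pairs moved almost identically, by -1.13, -1.16 and -1.19, and the mean fall was 2.23-fold (mean log2 change -1.16, SD 0.0263), with the smallest adjusted p of all genes (8.46e-05). That SD lies below the 0.157 that the spread between control wells alone gives a pair change, so the closeness of the pairs is finer than the assay resolves. *Ephb2*, a receptor that guides axons and forms spines, went from -2.31, -2.09 and -2.11 to -3.22, -3.36 and -3.52. All P20 pools were below all P10 pools, by 2.29-fold on average (log2 -1.20, adjusted p = 0.000283), and the GF pair moved least (-0.91). *Pcdh8*, an activity-induced protocadherin, was called lower at -0.24 with overlapping groups, but not with the 5-gene reference or without *B2m*. *Cdh2*, the N-cadherin gene, was not called (-0.08).

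Extracellular matrix and proteolysis genes had 3 of 5 called lower, 0 higher and a median of -0.43. The number called lower ran from 2 to 4 with the reference, and from 2 to 3 among the adhesion molecules. *Reln*, the matrix protein of Cajal-Retzius cells and interneurons that positions neurons, had levels of -2.53, -2.16 and -2.43 at P10 and -3.36, -3.46 and -3.52 at P20. *Mmp9*, a protease that remodels the matrix around synapses, went from -6.36, -6.70 and -6.49 to -7.53, -7.48 and -7.63. Both fell without overlap, *Reln* by 1.07 (2.11-fold, adjusted p = 0.000293) and *Mmp9* by 1.03 (2.04-fold, adjusted p = 0.0018). *Adam10*, a sheddase of synaptic proteins, was called lower at -0.29, though not with the 5-gene reference or without *B2m*. The protease inhibitor gene *Timp1* had pair changes of 0.07, -0.55 and -0.81 and was not called, and *Plat* had a mean change of -0.01.

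Secreted factors followed. *Igf1*, a growth factor of developing neurons, had levels of -3.67, -3.72 and -3.68 at P10 and -4.73, -5.03 and -4.70 at P20. The pools of each age lay close together and far from those of the other, and the fall was 2.18-fold (log2 -1.13, 95% CI -1.35 to -0.90, adjusted p = 0.000205). *Inhba*, which encodes a subunit of activin, was called lower at -0.42, but not with the 5-gene reference or without *B2m*. The median of both was -0.78. *Tnf*, an inflammatory cytokine, was at the limit in the P10 GF pool and in all 3 P20 pools, with CTs of 32.8 and 33.0 in the P10 CONV and BIF pools. It was thus at least 3.40-fold lower at P20 in CONV mice and at least 4.10-fold lower in BIF mice, and no fold can be given for GF mice.

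**Figure D4:**
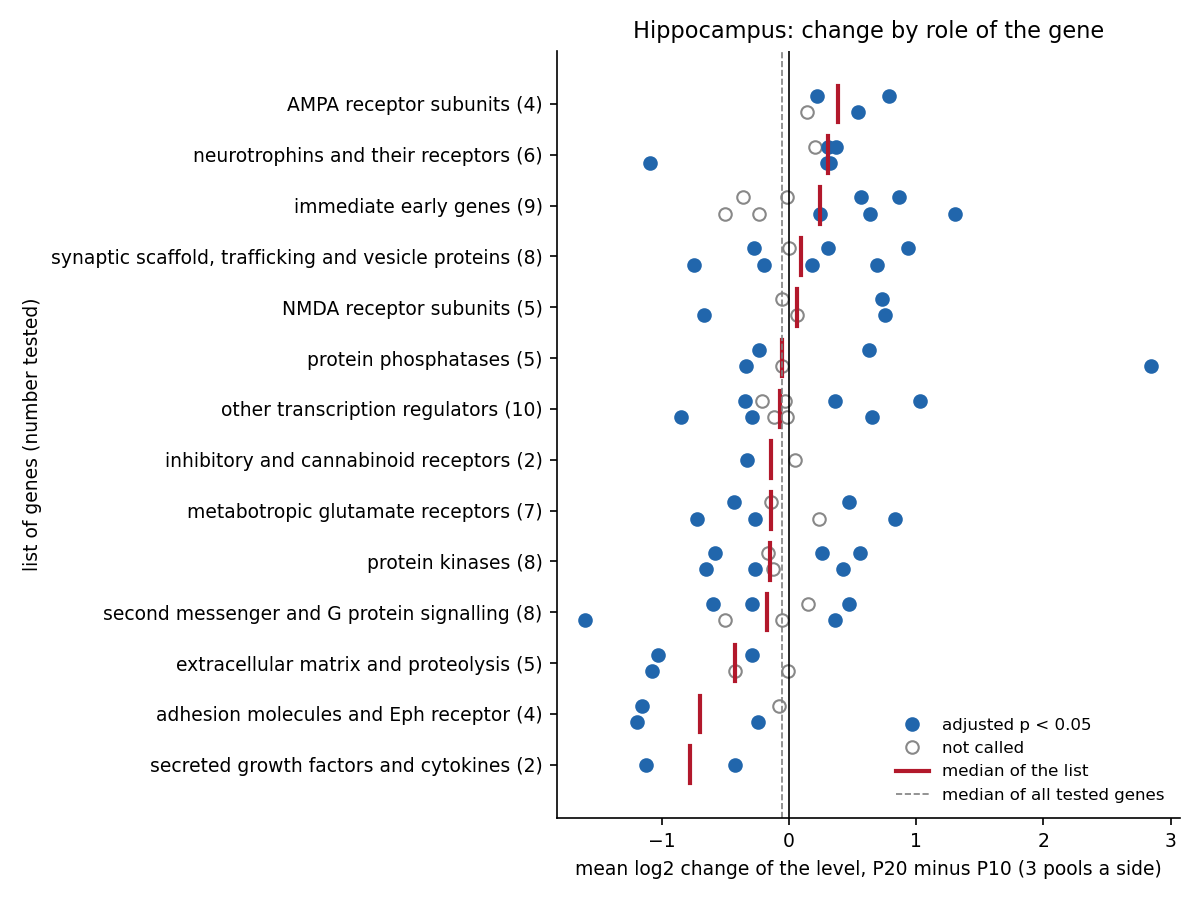
Mean log2 change from P10 to P20 (horizontal axis) of each tested gene by list, with called genes filled, the median of each list as a bar and the median of all 83 genes as a dashed line. AMPA receptor subunits have the highest median (0.38), and adhesion molecules (-0.70) and secreted factors (-0.78) have the lowest.

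The protein phosphatase list held the largest rise on the array. *Ppp1r14a* encodes an inhibitor of protein phosphatase 1 that is also a marker of mature oligodendrocytes, the cells that make myelin. Its levels were -5.49, -6.24 and -5.83 at P10 and -2.65, -2.82 and -3.54 at P20. The lowest P20 pool (BIF) was still far above the highest P10 pool (GF), and the mean rise was 2.85, or 7.21-fold (95% CI 2.36 to 3.33, adjusted p = 0.000123). In such bulk RNA a change in the number of cells of a type and a change in RNA per cell cannot be told apart. *Ppp3ca*, the catalytic subunit gene of calcineurin, which weakens synapses, rose by 0.63 (adjusted p = 0.00136), from 1.77, 1.47 and 1.53 to 2.18, 2.16 and 2.30. *Ppp1ca* (-0.34) and *Ppp2ca* (-0.24) were called lower, but not with the 5-gene reference or without *B2m*, and *Ppp1cc* was not called. The median of the 5 genes was -0.05, the same as for all genes, and turned to 0.04 with the 5-gene reference and 0.07 without *B2m*.

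Of the 8 protein kinases 3 were called higher, 3 lower and 2 not, close to the 36.1% and 33.7% of all genes, with a median of -0.15. *Camk2a*, the kinase of long-term potentiation in excitatory neurons, had levels of 3.06, 2.64 and 2.68 at P10 and 3.36, 3.27 and 3.42 at P20. It rose by 0.56 without overlap (adjusted p = 0.00301), least in the GF pair (0.31), which started highest. *Prkca*, a protein kinase C gene, rose by 0.42 (adjusted p = 0.0018). *Akt1*, the kinase of growth factor and insulin signals, went from -1.25, -1.10 and -1.10 to -1.68, -1.94 and -1.79. Its fall of 0.65 (adjusted p = 0.00141) separated the ages, as did that of *Pim1* (-0.58, adjusted p = 0.0148), and *Prkg1* was called lower at -0.27. Without *B2m* in the reference *Pim1* and *Prkg1* were not called, and *Prkg1* was not with the 5-gene reference either.

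Second messenger genes had 2 members called higher, 3 lower and 3 not called, with a median of -0.17. *Nos1*, the nitric oxide synthase of neurons and a marker of interneurons, rose by 0.47 (adjusted p = 0.0132) and *Adcy1*, a calcium-stimulated adenylyl cyclase, by 0.36 (adjusted p = 0.00418). *Plcg1*, the phospholipase that growth factor receptors recruit, had levels of -0.97, -0.56 and -0.81 at P10 and -2.30, -2.46 and -2.38 at P20. This was the largest fall on the array, 3.03-fold (log2 -1.60, 95% CI -1.87 to -1.33, adjusted p = 0.000123). A gap at P4 stands beside it. The P4 GF hippocampus pool was run on plate 1 with the P10 pools, and its *Plcg1* level was 0.07, against -1.43 and -1.49 in the P4 CONV and BIF pools on other plates. That gap of 1.53 nearly equals the fall, treatment and plate cannot be told apart at P4, and the part of the plate in the fall was not tested. *Gnai1* (-0.29) and *Ywhaq* (-0.60) were also called lower, but not under every reference, while *Adcy8* was not called, with pair changes of -0.18, -0.14 and -1.19.

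The same look at P4, taken after the values were seen, was made for all genes and both plates. On plate 1 the P4 GF hippocampus pool stood off from the other P4 pools by a median of 0.13, and by 0.5 or more in 4 of the tested genes. In 11 of the 58 called genes the gap was at least 50% of the change and in the direction that would give it: *Gabra5*, *Gnai1*, *Grm5*, *Junb*, *Ngfr*, *Ntf3*, *Pcdh8*, *Plcg1*, *Ppp2ca*, *Prkg1* and *Ywhaq*. Plate 4, which held the P20 pools, also held the P4 GF cortex pool. That pool stood off from the other P4 cortex pools by a median of 0.19, and by 0.5 or more in 8 tested genes. With the sign kept it lay above them by a median of 0.15, so gaps towards a rise prevailed on plate 4 over all tested genes. By the 50% measure 11 called genes, all of them rises, had such a gap on plate 4. Among these are *Adcy1*, *Bdnf*, *Gria2*, *Homer1*, *Junb*, *Kif17*, *Nos1*, *Ntf3*, *Ntrk2* and *Ppp3ca*. Since a change from P10 to P20 carries both plates, the net gap is that of plate 4 minus that of plate 1. It was at least 50% of the change and in its direction in 11 called genes, 8 higher (*Adcy1*, *Bdnf*, *Gria2*, *Homer1*, *Junb*, *Kif17*, *Ntf3* and *Ntrk2*) and 3 lower (*Ngfr*, *Plcg1* and *Ppp1ca*). These hold 2 of the 12 largest rises and 2 of the 12 largest falls. In 4 genes, all rises, the net gap reached the size of the change: it was 0.67 for *Ntf3* beside a rise of 0.37, 1.20 for *Junb* beside 0.86, 0.58 for *Gria2* beside 0.54 and 0.44 for *Homer1* beside 0.31. It was 0.82 for *Kif17* beside 0.93 and 0.22 for *Bdnf* beside 0.30. It was -1.26 for *Plcg1* beside a change of -1.60 and -0.66 for *Ngfr* beside -1.09. Of the 9 falls with such a gap on plate 1, 6 had a net gap in the direction of a rise (*Gabra5*, *Gnai1*, *Grm5*, *Pcdh8*, *Ppp2ca* and *Prkg1*). The cortex is another tissue, treatment and plate cannot be told apart in these P4 pools, and the part of the plates in the changes was not tested. The PCR controls had a mean CT of 19.6 at P10 and 19.8 at P20, and the reverse transcription controls 21.0 at both. The mean CT of the 4 reference genes was 22.2, 22.0 and 22.2 at P10 and 22.2, 22.4 and 22.2 at P20. Relative to their own mean *B2m* changed by 0.37, *Gapdh* by 0.09, *Hsp90ab1* by -0.10 and *Gusb* by -0.36, and *Actb*, which was not in the mean, by -0.48. The part of these differences in the gene changes was not tested beyond the other references.

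The treatment pairs differed in the size of change. Of the 58 called genes, the GF pair had the smallest change in 35, the BIF pair in 12 and the CONV pair in 11, and the CONV pair had the largest in 30. The median size of change over these genes was 0.44 in the GF pair, 0.57 in the CONV pair and 0.56 in the BIF pair. Of the 30 called rises, 24 had the highest of the 3 P10 levels in the GF pool, among them *Arc* and *Grin2a*, and 4 had the lowest there, among them *Nos1* and *Ntf3*. The pools lay further apart (SD) at P10 than at P20 in 25 of the 30 rises. Of the 28 falls the GF pool was highest in 8 and lowest in 13 at P10, and 10 had the larger SD at P10. All these counts cover called genes only, and the calls rest on the same pools and changes. No share over all tested genes is given as their background. The counts thus do not show that a high GF level at P10 or a small GF change is particular to called genes. With 1 pool per treatment and age, no difference between treatments was tested.

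Markers of cell types moved unevenly within their own lists. Their summed levels treat all assays as equally efficient, which was not measured, so they compare pools only, and the gene with the lowest CT weighs most in each. The oligodendrocyte marker was *Ppp1r14a* alone. Of the 2 markers of excitatory forebrain neurons, *Camk2a* was higher and *Gabra5* lower, and their summed level, with the lowest CT in *Camk2a*, was 3.21, 2.83 and 2.89 at P10 and 3.47, 3.38 and 3.51 at P20. Of the markers of Cajal-Retzius cells and interneurons, *Reln* fell and *Nos1* rose, with summed levels of -2.29, -1.88 and -2.17 before and -2.77, -2.78 and -2.82 after, and *Reln* had the lowest CT in every pool. Among 3 astrocyte markers *Ntrk2*, with the lowest CT, was higher, *Grm3* lower and *Timp1* not called, with sums of 0.58, 0.54 and 0.37 at P10 and 0.67, 0.59 and 0.62 at P20. Markers of cerebellar granule cells, which the hippocampus should lack, gave sums between -4.29 and -3.97 in all 6 pools, with *Grm4* called lower and *Grin2c* called higher. The microglial marker *Tnf* was at the limit in 4 of the 6 pools. *Camk2a* was between 2.64 and 3.42 in the hippocampus pools and between -3.36 and -1.67 in the cerebellum pools of the same ages, which sets the labelled region apart from the cerebellum. Cortex pools had 1.79 to 2.26 at P10, below all hippocampus pools of that age. At P20 they had 3.31 to 3.61 and overlapped the hippocampus pools. This marker thus tells hippocampus from cortex at P10 but not at P20. What part cell composition has in the gene changes was not tested.

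Several of these genes had already moved between P4 and P10. The P10 pools serve in both steps, so the steps are given side by side only, as mean log2 changes. *Arc* moved by 2.14 and then 1.30, *Grin2c* by 2.38 and then 0.76, *Grin2a* by 1.19 and then 0.73, and *Camk2a* by 1.53 and then 0.56. *Reln* moved by -1.32 and then -1.07, *Ephb2* by -0.83 and then -1.20, and *Ncam1* by -0.70 and then -1.16. The step from P4 to P10 was -0.14 for *Ppp1r14a*, -0.00 for *Klf10*, 0.05 for *Kif17* and 0.11 for *Grm2*, genes whose later step was larger. *Egr4* had its larger step before P10 (1.75, then -0.24).

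Compared with the cortex over the same days, the change differed in 13 of 83 genes (15.7%) by the interaction of region and age in limma, more positive in the hippocampus for 6 and more negative for 7. In 9 of the 13 the mean changes of the regions had opposite signs. Of these, only *Adcy1*, *Egr2* and *Gria1* had a called change in both regions in the limma fit that compares regions. In that fit *Nptx2*, *Ntf3*, *Egr4* and *Timp1* were not called in the hippocampus, and *Gria2* and *Ntrk2* were not called in the cortex. For those genes a difference in the change was called, but not a move in opposite directions. *Nptx2* differed most in the negative direction. Its cortex levels went from -3.21, -3.52 and -3.25 to -1.84, -1.99 and -1.91, and its hippocampus levels from -2.60, -2.63 and -2.63 to -2.72, -2.85 and -2.89. All cortex pools were higher at P20 and all hippocampus pools slightly lower, a difference of -1.61 (95% CI -1.91 to -1.31). *Ntf3* differed most in the positive direction, with a mean change of 0.37 in the hippocampus and -1.50 in the cortex (difference 1.86, adjusted p = 0.0077), a call lost without the BIF pools (adjusted p = 0.0664), and the net gap at P4 given above stands beside its rise. *Adcy1* changed by 0.36 and -0.98 (difference 1.34, adjusted p = 0.000723). *Camk2a* rose in both, by 0.56 in the hippocampus and 1.38 in the cortex (difference -0.82). *Plcg1* fell by 1.60 in the hippocampus and by 0.40 in the cortex (difference -1.20), with the gap at P4 given above.

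Some of these cortex differences depended on the reference. *Nptx2*, *Ntf3*, *Adcy1*, *Camk2a*, *Plcg1* and *Egr2* were called under all 5 references. The call of *Egr2* was lost without the GF pools and without the BIF pools. *Gabra5*, *Gria1*, *Gria2*, *Ntrk2*, *Grin2c* and *Timp1* were not. With *Gapdh* alone 14 of 18 called differences were positive (77.8%, against 46.2%), and with the 5-gene reference 2 of 10 (20.0%). Without the BIF pools 4 were called, and without the GF pools 8. The largest rise of the hippocampus was not particular to it: *Ppp1r14a* rose by 3.08 in the cortex, a difference that was not called.

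The cerebellum differed in 43 of 83 genes (51.8%), more positive in the hippocampus for 12 and more negative for 31. *Grin2b* showed the largest gap, 2.94 (95% CI 2.56 to 3.32). Its cerebellum levels went from -2.17, -2.51 and -2.15 to -5.49, -5.20 and -5.13, while the hippocampus had the levels given above. *Ngfr* fell by 3.54 in the cerebellum and by 1.09 in the hippocampus (difference 2.45), and *Grm5* fell by 2.43 and by 0.26 (difference 2.17). *Bdnf* rose by 3.10 in the cerebellum and by 0.30 in the hippocampus (difference -2.80). *Grm4*, the granule cell marker, rose by 1.99 there and fell by 0.43 in the hippocampus (difference -2.42). *Ppp1r14a* rose more in the hippocampus than in the cerebellum, where it changed by 1.16 (difference 1.69). The 11 differences from the cerebellum that are named in the plot of regions were called under every alternative, but the balance was not stable. With *Gapdh* alone 21 of 33 were positive (63.6%, against 27.9%) and the median difference moved from -0.34 to 0.05, and without the BIF pools 21 were called. Each region had its P10 and P20 pools on plates of their own, so region by age and plate cannot be told apart.

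**Figure D5:**
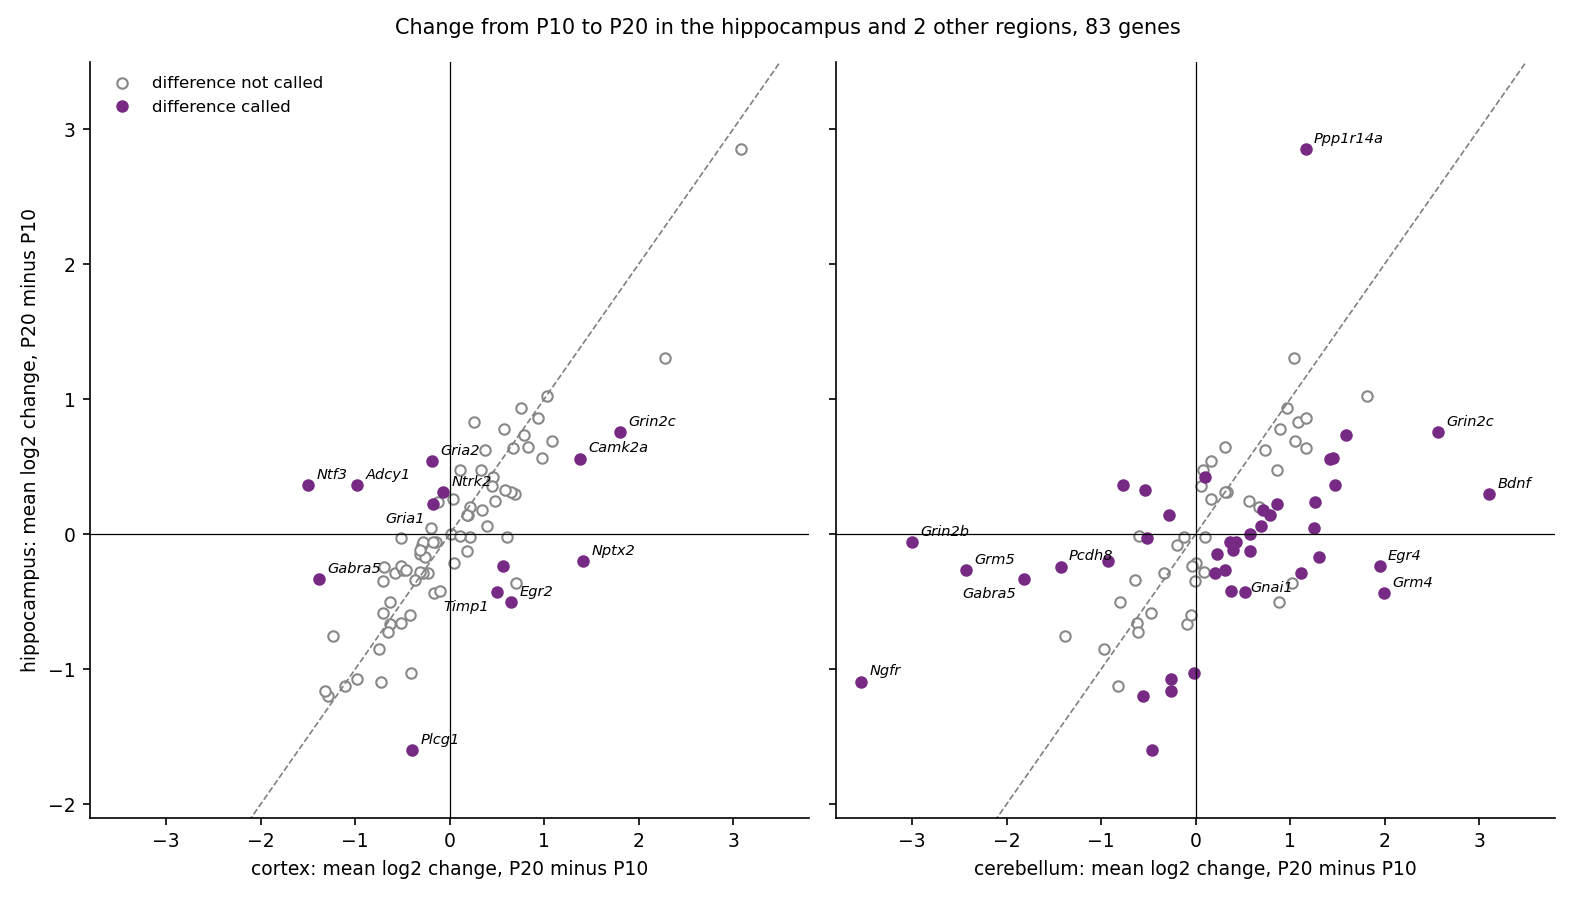
Mean log2 change from P10 to P20 in the hippocampus (vertical axis) against that in the cortex (left) or cerebellum (right) for 83 genes, with called differences filled, the largest of these named and a dashed line of equal change. *Nptx2* and *Ntf3* lie farthest from the line in the cortex panel (-1.61 and 1.86) and *Grin2b* and *Bdnf* in the cerebellum panel (2.94 and -2.80).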

How the data were processed

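RNA pooled from 5 male mice per region, age and treatment was run once on the mouse synaptic plasticity array, 96 wells per pool. The authors set the detection limit to a CT of 35 and deposited the raw CT of each well, without normalization, an inverse log2-like scale. The authors also deposited fold changes of colonized over GF pools. These hold treatment comparisons only and were not used. The deposited wells carry no names, which were taken from the array order and checked against listed values with a tolerance of 0.04.

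Levels were fitted with limma 3.58.1 in R 4.3.3 (lmFit, eBayes with a trend on the mean level), over the 6 hippocampus pools with treatment as a block, and over 18 pools of 3 regions with 9 region and treatment blocks for the differences between regions. The p-values are two-sided and adjusted by Benjamini-Hochberg over the 83 genes tested, and a gene was called under 0.05. The 2 fits have 2 and 6 residual degrees of freedom. An exact sign-flip test of 3 pairs cannot go below p = 0.25. The fits were tested on simulated data. Tables were made in Python 3.11.15 with numpy 2.4.6 and pandas 2.3.3, and plots with matplotlib 3.10.9.

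The pairing comes from the treatment labels, not from the same animals. Deviations from the age means correlated across genes by 0.135 (GF), 0.227 (CONV) and 0.0679 (BIF) between pools of the same treatment, and by -0.174 to 0.103 between treatments. The BIF P10 pool was closer to the GF P20 pool (0.103) than to its own pair.

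Genes named in the text are the 12 largest called rises and falls with the same direction in every pair, all members of the glutamate receptor, immediate early and neurotrophin lists, the called and the most and least changed members of the other lists, genes at the limit, reference genes and, between regions, the 6 largest called differences in each direction. *Adcy8*, *Creb1*, *Dlg4* and *Ppp1cc* were named after their values were seen, and *Crem*, *Rgs2*, *Rheb* and *Sirt1* for their wells only. Some genes that this rule names are not reported here, though they were tested and counted. The members and lists were chosen with earlier results of these data known. Alternatives were other references, no block, no trend, no high CTs, genes at the limit kept, all 27 pools, other call rules and each treatment left out.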

Additional observations from a re-analysis of the deposited data

Results flagged for a closer look

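The change from P10 to P20 differed between the hippocampus and another region by a test of the difference itself, the interaction of region and age in limma, for the genes below, which were among the largest differences in each direction. All values are log2 differences, hippocampus minus the other region, over 3 pools per region and age. Where positive, the change of the hippocampus was the more positive one.

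Against the cortex the difference was 1.86 for *Ntf3*, 1.34 for *Adcy1*, 1.05 for *Gabra5*, 0.72 for *Gria2*, 0.40 for *Gria1* and 0.37 for *Ntrk2*. It was -1.61 for *Nptx2*, -1.20 for *Plcg1*, -1.16 for *Egr2*, -1.05 for *Grin2c*, -0.93 for *Timp1* and -0.82 for *Camk2a*. Of these 12, 6 were called under all references and 4 under all alternatives.

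Against the cerebellum it was 2.94 for *Grin2b*, 2.45 for *Ngfr*, 2.17 for *Grm5*, 1.69 for *Ppp1r14a*, 1.48 for *Gabra5* and 1.19 for *Pcdh8*. It was -2.80 for *Bdnf*, -2.42 for *Grm4*, -2.18 for *Egr4*, -1.81 for *Grin2c* and -1.41 for *Gnai1*. All 11 were called under all alternatives run.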

How the results depend on the processing

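No called gene changed sign between P10 and P20 in the hippocampus under any alternative. The limma fit over 18 pools, used to compare regions, called 40 of the hippocampus changes (22 higher, 18 lower). Among those it did not call were *Bdnf* (adjusted p = 0.305), *Ntf3* and *Nptx2*. The count of 58 calls (30 higher, 28 lower) was 53 with *Gapdh* alone, 55 with the median reference, 57 without CTs above 30, 58 with *Tnf* kept at the limit, 50 without the trend and 41 in a fit over all 27 pools. Without the treatment block, that is with no replicate block, it was 49 (26 higher, 23 lower), all of them among the 58, and the region differences counted 11 and 41. Falls were 16 with the 5-gene reference and 12 without *B2m*. Each reference shifts all genes of a pool together, and the part of that shift in these counts was not tested. Asking also for a 2-fold change left 10 (3 higher, 7 lower), a rule that is stricter by construction, and asking for 1.5-fold in all 3 pairs without a test gave 16 (8 higher, 8 lower), all of them among the 58. Leaving out a treatment gave 4 to 48 calls, 2 to 26 higher and 2 to 22 lower. All 3 such fits had 1 residual degree of freedom. The lowest count came without the BIF pools, with 2.96 degrees of freedom in all, against 83 without GF or CONV and 6.41 with all pools. Of the called genes, 32 (20 higher, 12 lower) were called under every alternative fit but that one, not counting the high CT filter. The 13 differences from the cortex ranged from 4 (without BIF) to 16 (without CONV) with a treatment left out, 8 without GF, and from 9 to 18 otherwise. The 43 from the cerebellum ranged from 21 (without BIF) to 38 (without CONV), and from 33 to 45 otherwise, where with *Gapdh* 24 remained called and 1 changed sign. Beyond the fewer pools in such fits, the cause was not tested. For a PCR array the number of pools, and CTs near 35, limit the precision.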
